A study of Mus musculus with 8 samples.

Results

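Imprinted genes are transcribed mainly from the copy inherited from the mother or mainly from the copy inherited from the father. DNA methylation laid down in the germ line marks which parent a copy came from. Many of them set the growth of the embryo and stay active in a few adult tissues, fat among them. In mouse fat, Mest is known for high transcript levels when adipocytes enlarge on a rich diet. The 10 imprinted growth genes described here were chosen by name, with earlier results of these data known. They are the paternally expressed Mest, Peg3, Plagl1, Nnat, Ndn and Sgce, and the maternally expressed H19, Meg3, Cdkn1c and Grb10. Their probes were found through the RefSeq accession that the array files give for each probe, and 8 of the 10 genes had probes, 15 in all. These are 15 of 30508 probes kept, and 8 of 14730 genes tested. The names H19 and Meg3 were matched to 0 probes, so no value is given for them.

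The samples were inguinal white adipose tissue, the fat under the skin of the groin, with 4 samples from Senp2-aKO mice and 4 from control mice. Senp2 encodes a protease that takes the small protein SUMO off other proteins, and the study asked whether losing it in adipocytes turns white fat brown through the transcription factor C/EBPβ. The Senp2-aKO group was Senp2flox/flox with Adipoq Cre, a recombinase driven by the adiponectin gene and so active in adipocytes. The control group was Senp2flox/flox without Cre, so both groups carried the floxed alleles. From 8 weeks of age all mice ate a diet with 58 kcal% fat for 12 weeks, at 22 to 24 °C, and total RNA was read on Agilent mouse arrays with the dye Cy3. No group on another diet was analysed here, so the levels below describe fat on the high-fat diet alone.

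Every level below is the log2 signal of a probe minus the log2 of the 75th percentile on the same array. Differences are Senp2-aKO minus control on that log2 scale, from a limma fit over all 14730 genes. The threshold for passing was a p under 0.05 after Benjamini-Hochberg adjustment over those genes. The 75th percentile itself was 349 ± 27.1 signal units on Senp2-aKO arrays and 419 ± 18.2 on control arrays (SD, n = 4 each, exact permutation p = 0.0286, the smallest that 4 against 4 allows). Senp2 read 2.12 to 2.22 in Senp2-aKO fat and 2.37 to 2.52 in control fat, a difference of -0.27 (SE 0.08, limma adjusted p = 0.0507). All 8 adipocyte markers were above background in both groups, and their mean level was 7.38 to 7.77 in Senp2-aKO fat and 7.18 to 7.54 in control fat. Skeletal muscle markers differed far more, with a mean level of 2.89 to 4.53 in Senp2-aKO fat and -1.81 to 1.36 in control fat. Of these markers 17 of 19 rose, against 7.29% of all genes. Of the 17, Mylpf was above background on 1 of the 4 control arrays, so it entered the test through the Senp2-aKO arrays. The B lymphocyte marker mean was 1.48 on array Senp2-aKO 2 and -2.93 to -2.69 on the other Senp2-aKO arrays, against -3.08 to -0.76 in control fat. Array Senp2-aKO 2 also stood apart across all genes, with a correlation to the other Senp2-aKO arrays that brought their range down to 0.964, against at least 0.985 without it. Going by the array positions in the names of the scanner outputs, which the headers do not repeat, the Senp2-aKO arrays lay in the second row of the slide and the control arrays in the first. If so, the position on the slide cannot be told apart from the genotype. The labels do not say whether each sample came from a separate mouse, so the p-values measure the spread between these samples.

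Mest had the largest difference of the 8 measured genes, and its starts are shown because the imprint of Mest lies in CG pairs around its main start, which carry methylation on the maternal copy. RefSeq (GRCm38.p6) gives 3 starts for Mest on chromosome 6, plus strand. Shown are 250 bases before and 50 bases after the upstream start (chr6:30733256-30733555) and after a main start (chr6:30737800-30738099). Capitals mark CG pairs, the letters that can carry this methylation.
Mest upstream start: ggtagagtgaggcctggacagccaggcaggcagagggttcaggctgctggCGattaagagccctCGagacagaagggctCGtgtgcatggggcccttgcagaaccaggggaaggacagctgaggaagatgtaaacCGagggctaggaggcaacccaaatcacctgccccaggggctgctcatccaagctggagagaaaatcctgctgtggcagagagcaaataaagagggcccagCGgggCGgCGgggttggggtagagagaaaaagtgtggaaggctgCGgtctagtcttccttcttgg
Mest main start: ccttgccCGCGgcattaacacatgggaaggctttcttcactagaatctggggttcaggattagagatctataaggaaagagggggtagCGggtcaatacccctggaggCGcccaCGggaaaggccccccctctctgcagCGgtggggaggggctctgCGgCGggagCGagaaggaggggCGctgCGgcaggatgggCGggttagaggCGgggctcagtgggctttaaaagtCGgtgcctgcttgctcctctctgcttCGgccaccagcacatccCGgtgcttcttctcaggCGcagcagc
The main start lies 4544 bases downstream of the upstream start, and the third start lies 3 bases from the main start. The window of the main start holds 17 CG pairs and that of the upstream start 8, against a median of 7 over 32851 mouse promoters of the same length. Of those promoters, 68.6% held fewer CG pairs than the main window and 51.4% fewer than the upstream window. The motif TTGCNNAA, a C/EBP-type sequence searched on both strands, occurs in the upstream window as TTGCAGAA, 155 bases before the start, and is not found in the main window. This motif is found in 10.8% of all promoters of this length. Of the 10 genes, 7 had promoters in the table, 11 in all, and Ndn was the other gene with a match. These matches describe letters only, since methylation and factor binding were not measured.

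Of the paternally expressed genes, Mest, a hydrolase of the endoplasmic reticulum, had levels of 4.70, 2.497, 5.92 and 5.77 in Senp2-aKO fat and 6.52, 6.28, 6.78 and 6.26 in control fat. As multiples of the 75th percentile these are 26.0, 5.64, 60.4 and 54.4 in Senp2-aKO fat and 91.6, 77.8, 109.6 and 76.6 in control fat. All 4 Senp2-aKO arrays lay below all 4 control arrays, Senp2-aKO 2 by far the lowest. The mean was 4.72 ± 1.58 in Senp2-aKO fat and 6.46 ± 0.24 in control fat (SD, n = 4 each). The difference of -1.74 (SE 0.69, 95% interval -3.32 to -0.16), which is 0.299 of the control level, did not pass (limma adjusted p = 0.124). Without array Senp2-aKO 2 it was -0.999, with a limma adjusted p of 0.0589. That was the lowest adjusted p of 17 alternative fits, of which 0 passed. Leaving out any 1 array gave differences of -2.14 to -0.999 (limma adjusted p = 0.0589 to 0.240).

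The spread of Mest was itself large in Senp2-aKO fat. Its SD there was 6.53 times that in control fat. It was above the SD of 99.1% of all genes in Senp2-aKO fat and of 73.6% in control fat. The other 2 Mest probes gave differences of -1.55 (SE 0.57, limma adjusted p over probes 0.120) and -1.79 (SE 0.60, limma adjusted p over probes 0.0959). At each of the 3 Mest probes the Senp2-aKO arrays lay below the control arrays, and Senp2-aKO 2 was lowest. Over all 30508 probes 9.83% passed, and the groups did not overlap at 23.1%. The B lymphocyte marker mean was highest on that same array, and with this mean in the model the Mest difference was -1.54 (limma adjusted p = 0.0635). The part of lymphoid RNA in the Mest values was not tested further.

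**Figure D1:**
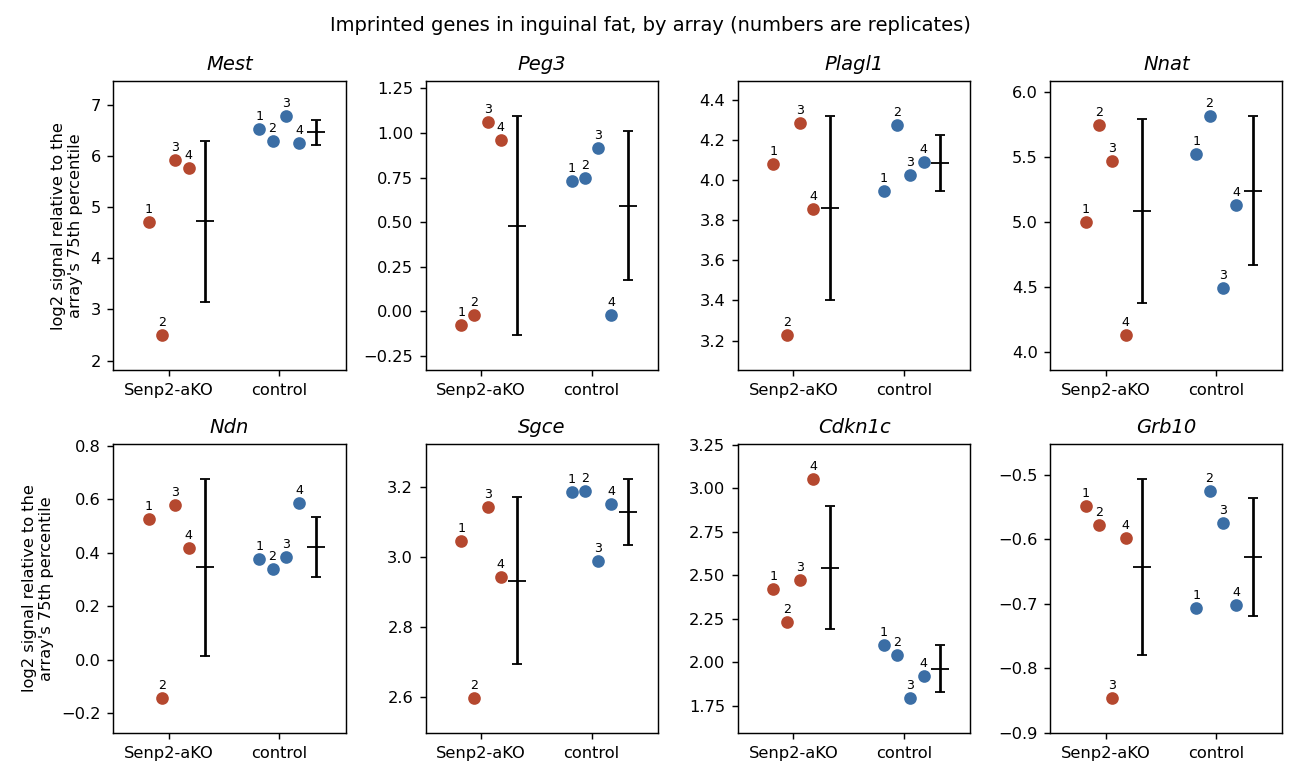
Level of each measured imprinted gene on each array, as log2 signal relative to the 75th percentile of that array, with Senp2-aKO arrays in red on the left and control arrays in blue on the right of each panel. Points are arrays with their replicate number, and bars are the mean ± SD of 4 arrays. The groups do not overlap for Mest (lower in Senp2-aKO fat) and Cdkn1c (higher), and they overlap for the other 6 genes.

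Plagl1, a zinc finger transcription factor known in the mouse to regulate other imprinted genes, had levels of 4.08, 3.23, 4.28 and 3.86 in Senp2-aKO fat and 3.95, 4.27, 4.02 and 4.09 in control fat. The groups overlapped, and Senp2-aKO 2 was the lowest array. The difference was -0.22 (SE 0.22, limma adjusted p = 0.516), and -0.01 without Senp2-aKO 2. The other 3 Plagl1 probes gave -0.21, -0.09 and 0.17, so the sign depended on the probe. Peg3, a zinc finger protein linked to growth and cell death, had levels of -0.08, -0.02, 1.06 and 0.96 in Senp2-aKO fat and 0.73, 0.75, 0.92 and -0.02 in control fat. Low and high arrays occurred in both groups, and the difference was -0.11 (SE 0.33, limma adjusted p = 0.840), against 0.18 at the second Peg3 probe.

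Nnat encodes neuronatin, a small membrane protein of the endoplasmic reticulum. Its levels were 5.004, 5.75, 5.47 and 4.13 in Senp2-aKO fat and 5.53, 5.81, 4.50 and 5.13 in control fat. Each group held a low array, Senp2-aKO 4 and control 3, and the difference was -0.15 (SE 0.40, limma adjusted p = 0.819). Both Nnat probes gave nearly the same difference, -0.15 and -0.13. The spread of Nnat was large in both groups, above that of 91.4% of genes in Senp2-aKO fat and of 94.5% in control fat.

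Ndn encodes necdin, which in the mouse restrains the formation of adipocytes. Its levels were 0.53, -0.14, 0.58 and 0.42 in Senp2-aKO fat and 0.38, 0.34, 0.38 and 0.59 in control fat, with a difference of -0.08 (SE 0.17, limma adjusted p = 0.783). Senp2-aKO 2 was the only array below 0, and without it the Ndn difference was 0.09. Sgce encodes epsilon-sarcoglycan, the imprinted member of a membrane complex best known from muscle. Its levels were 3.05, 2.60, 3.14 and 2.94 in Senp2-aKO fat and 3.19, 3.19, 2.99 and 3.15 in control fat. The groups overlapped, with a difference of -0.20 (SE 0.13, limma adjusted p = 0.334), and -0.08 without Senp2-aKO 2.

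Of the maternally expressed genes, Cdkn1c, which encodes the inhibitor p57 of cyclin-dependent kinases and restrains cell division, had levels of 2.42, 2.23, 2.47 and 3.05 in Senp2-aKO fat. In control fat its levels were 2.10, 2.04, 1.80 and 1.92. All 4 Senp2-aKO arrays lay above all 4 control arrays. The level in Senp2-aKO fat was 1.49 times that in control fat (95% interval 1.13 to 1.98). The difference of 0.58 (SE 0.18) did not pass (limma adjusted p = 0.0628). It passed without Senp2-aKO 2 (0.68, limma adjusted p = 0.0340). It also passed after quantile normalisation (0.58, adjusted p = 0.0450). In all, Cdkn1c passed in 4 of 17 alternative fits. Of the 8 fits that left out an array it passed in 1, with differences of 0.41 to 0.68 (limma adjusted p = 0.0340 to 0.151).

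Grb10, an adaptor protein that dampens signalling from the insulin and IGF1 receptors, differed by -0.02 (SE 0.10, limma adjusted p = 0.930). Its levels were -0.55, -0.58, -0.85 and -0.60 in Senp2-aKO fat and -0.71, -0.53, -0.57 and -0.70 in control fat. The 95% interval of the Grb10 difference was -0.24 to 0.21. It had the smallest SE of the 8 genes.

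Over the 8 measured genes, 0 passed the limma test, against 14.4% of all genes (7.29% higher and 7.12% lower). Before adjustment, Mest and Cdkn1c (2 of 8) had a p under 0.05, against 32.3% of all genes. The groups did not overlap for 2 of the 8, 1 higher and 1 lower, against 26.3% of all genes. The median difference of the 8 genes was -0.13, against -0.02 over all genes, and 7 of the 8 differences were below 0. With array weights, or with B lymphocyte markers as a covariate, 1 of the 8 passed, Cdkn1c in both. Of all 14730 genes, 1831 were higher and 1932 lower with array weights. With the B lymphocyte covariate 1508 were higher and 1688 lower. All 15 probes were above background on all 8 arrays. In a piece of fat, fewer cells of a type and less RNA per cell cannot be told apart, which holds for each level given here.

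**Figure D2:**
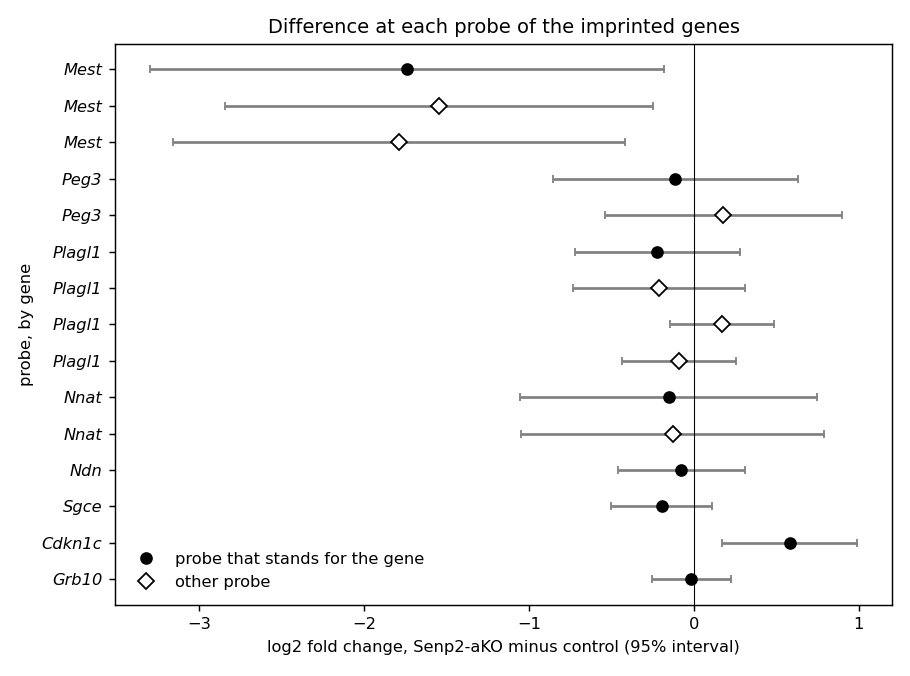
Difference at each of the 15 probes of the imprinted genes, as log2 fold change of Senp2-aKO minus control with its 95% interval, grouped by gene. Filled circles are the probes that stand for their gene and open diamonds the other probes. The 3 Mest probes lie between -1.79 and -1.55, the Cdkn1c probe lies at 0.58, and the intervals of the other genes include 0.

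Imprinted genes sit in clusters, so the genes next to the 10 were looked at by their order in RefSeq. Klf14, a maternally expressed transcription factor 5 genes from Mest, fell. Its levels were -1.08, -2.96, -0.41 and -0.57 in Senp2-aKO fat and 1.05, 0.73, 1.48 and 0.28 in control fat, again with Senp2-aKO 2 lowest and no overlap. The difference was -2.14 (SE 0.55, limma adjusted p = 0.0379). The call held without Senp2-aKO 2 (-1.57, limma adjusted p = 0.0177) or Senp2-aKO 3, and it was lost without any 1 of the other 6 arrays (adjusted p = 0.0541 to 0.0997). Copg2, a coatomer subunit gene that lies between Mest and Klf14, differed by -0.20 (limma adjusted p = 0.427).

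Dlk1 lies 2 genes from Meg3 and encodes Pref-1, a membrane protein that holds back the differentiation of preadipocytes. It rose. Its levels were -0.73, -1.003, -0.35 and -0.29 in Senp2-aKO fat and -1.84, -1.71, -1.69 and -1.46 in control fat, with no overlap. The difference was 1.08 (SE 0.17, limma adjusted p = 0.00948), or 2.12-fold, and 0.85 at the second Dlk1 probe. The call held when any 1 array was left out. Dlk1 is also a marker of adipose progenitors, whose other 11 markers had a mean level of 1.999 to 2.37 in Senp2-aKO fat and 1.49 to 1.94 in control fat (exact permutation p = 0.0286). Of these, Dpp4 and Ly6a rose and Pdgfrb fell. The part of a different progenitor share in the Dlk1 value was not tested.

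In the cluster of Ndn, Peg12 rose by 0.78 (SE 0.14, limma adjusted p = 0.0143), and 0.71 at its second probe, with the call lost without control 1 (adjusted p = 0.0508). Magel2, next to Ndn, differed by 0.16 (limma adjusted p = 0.540), and Snrpn by -0.59 (limma adjusted p = 0.156). Around Cdkn1c, the noncoding Kcnq1ot1, whose transcription silences the cluster on the paternal copy, differed by 0.44 (limma adjusted p = 0.265). Slc22a18 differed by -0.47 and Osbpl5 by -0.31 (limma adjusted p = 0.224 and 0.0941). Blcap, next to Nnat, and Zim1, next to Peg3, differed by 0.12 and 0.35 and did not pass. Casd1, with 1 gene between it and Sgce, differed by 0.18. Farther from Sgce, Ppp1r9a and Asb4 differed by -0.11 and 0.56. Tfpi2, with 15 genes between it and Sgce, differed by -1.63 (SE 0.69, limma adjusted p = 0.144). It was above background on 2 of the 4 Senp2-aKO arrays. Ddc and Phactr2, each with 3 genes between it and Grb10 or Plagl1, differed by 0.63 and -0.42. None of these neighbours of Sgce, Grb10 and Plagl1 passed.

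Across the wider imprinted set, 51 further genes known as imprinted in the mouse were listed and 37 were measured. Of these, 5 rose and 2 fell, 18.9% of them, against 14.4% of all genes, and their median difference was 0.12. Among listed genes above background on all 8 arrays, 3 rose and 2 fell, against 1060 higher and 1091 lower of all 13571 genes under that filter. The groups did not overlap for 11 of the 37, against 26.3% of all genes. The largest rise was that of Slc38a4, a paternally expressed amino acid transporter, with levels of -3.25, -2.24, -2.10 and -2.74 in Senp2-aKO fat and -4.37, -4.79, -4.60 and -5.01 in control fat. The Slc38a4 difference was 2.11 (SE 0.26, 4.32-fold, limma adjusted p = 0.00477), and the call held when any 1 array was left out. It was above background on 3 of the 4 control arrays. Under a background model on median signals (normexp), which adds an offset of 50 to each signal, the difference was 0.93 (limma adjusted p = 0.00225).

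Kcnk9, a potassium channel, was higher by 0.95 (SE 0.25, limma adjusted p = 0.0402). Of the 4 control arrays, 1 read it above background, so it entered the test through the Senp2-aKO arrays, its control level is mostly not well above background, and the size of the difference is uncertain. The call was lost in 6 of the 8 fits that left out an array (adjusted p = 0.0651 to 0.0994). Under normexp the Kcnk9 difference was 0.38. Zrsr1, a splicing factor named after its values were seen, rose by 0.54 (SE 0.12, limma adjusted p = 0.0252), and its call was lost without Senp2-aKO 1 or 4 or without control 1, 2 or 3 (adjusted p = 0.0520 to 0.0792). Airn, the noncoding RNA that runs antisense to Igf2r, fell by 0.83 on the log2 scale (SE 0.10, limma adjusted p = 0.00474), to levels of -0.07 to 0.08 in Senp2-aKO fat, against 0.61 to 0.99 in control fat. The call for Airn held when any 1 array was left out, while its second probe gave -1.20 (SE 0.50) and did not pass.

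Igf2r, the clearing receptor for IGF2, differed by -0.36 (SE 0.14, limma adjusted p = 0.121). Gnas, a G protein subunit, differed by -0.04 (limma adjusted p = 0.839), and by 0.47 at its second probe. Igf2, the growth factor of the H19 cluster, was above background on 1 of the 8 arrays, a control, and Peg10 on at most 3 for either of its probes, so neither was tested. Phlda2, Rtl1, Usp29, Calcr and Zdbf2 were above background on 0 arrays, and Rian had no named probe.

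**Figure D3:**
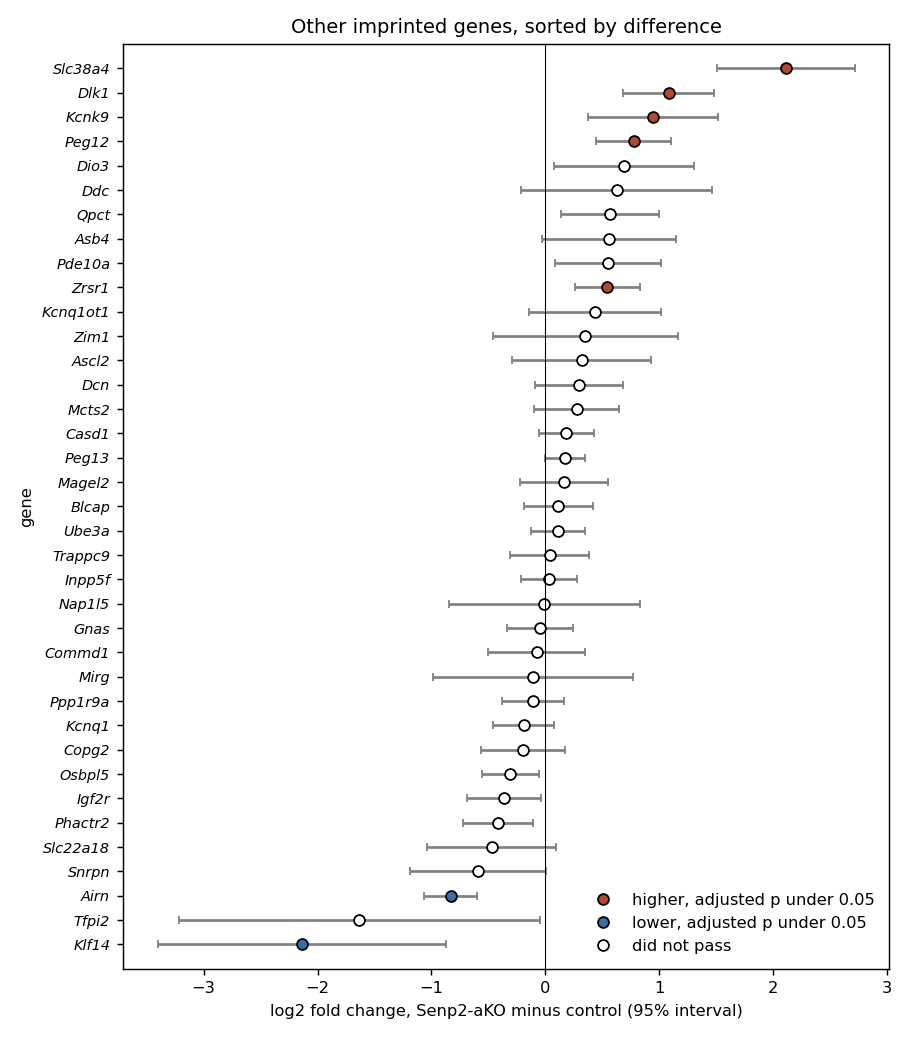
Difference of each of the 37 other measured imprinted genes, as log2 fold change of Senp2-aKO minus control with its 95% interval, from highest to lowest. Filled red circles passed as higher in Senp2-aKO fat, filled blue circles passed as lower, and open circles did not pass. Slc38a4 (2.11) and Klf14 (-2.14) lie at the ends.

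Genes known to move with fat mass, adipocyte size or tissue expansion were set beside Mest. Of 30 listed, 29 were measured, of which 2 rose and 6 fell, 27.6% of them, against 14.4% of all genes, and the median difference was -0.31. Without Senp2-aKO 2 the median was 0.01, with 3 higher and 9 lower, against 1356 higher and 1472 lower of all 14730 genes. With array weights the median was -0.02, with 5 higher and 10 lower, against 1831 higher and 1932 lower of all genes. The groups did not overlap for 13 of the 29, 3 higher and 10 lower, against 11.2% of all genes higher and 15.1% lower. Lep, which encodes leptin, the hormone that reports fat mass, fell. Its levels were 3.59, 2.61, 3.94 and 3.46 in Senp2-aKO fat and 5.53, 4.996, 5.40 and 5.07 in control fat. The difference for Lep was -1.85 (SE 0.27, limma adjusted p = 0.00761), and the call held when any 1 array was left out. Ccn5, a secreted protein of the WNT pathway, fell by 1.45 on the log2 scale (SE 0.27, limma adjusted p = 0.0149), and this call held as well.

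Sfrp5, a secreted WNT inhibitor known in mice to rise with Mest in expanding fat, fell by 1.22 on the log2 scale (SE 0.29, limma adjusted p = 0.0289). Its call was lost without Senp2-aKO 1 or 4 or without control 1, 2 or 3 (adjusted p = 0.0608 to 0.0829). Fgf1, a growth factor induced in fat by a rich diet, fell by 1.15 (SE 0.29, adjusted p = 0.0369), and Bmp3, a signalling protein of the BMP family, fell by 0.97 (SE 0.27, adjusted p = 0.0494), both on the log2 scale. Both calls held only without Senp2-aKO 2 or Senp2-aKO 3 and were lost without any 1 of the other arrays (adjusted p = 0.0538 to 0.101 for Fgf1 and 0.0696 to 0.120 for Bmp3). Hif1a, the oxygen-sensing factor, named after its values were seen, fell by 0.49 on the log2 scale (SE 0.11, limma adjusted p = 0.0270). Its call was lost without Senp2-aKO 1 or 4 or without control 1, 3 or 4 (adjusted p = 0.0608 to 0.0837).

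Tph1, the enzyme that starts serotonin synthesis outside the brain, rose by 1.59 (SE 0.25, limma adjusted p = 0.00949). Under normexp, with its offset of 50, Tph1 rose by 0.80 (limma adjusted p = 0.00731). Angptl4, an inhibitor of lipoprotein lipase, rose by 0.42 (SE 0.11, limma adjusted p = 0.0458). The Angptl4 call held only without Senp2-aKO 2 among the fits that left out an array (otherwise adjusted p = 0.0697 to 0.108), and after quantile normalisation the difference was 0.18 (adjusted p = 0.310). Npr3, the clearance receptor of natriuretic peptides, differed by -0.92 (SE 0.33, limma adjusted p = 0.0960). Cav1, the coat protein of caveolae, the small pits of the adipocyte membrane, differed by -0.74 (SE 0.24, limma adjusted p = 0.0739). Without Senp2-aKO 2 both passed, Npr3 at -0.56 (adjusted p = 0.0195) and Cav1 at -0.49 (adjusted p = 0.0299). Of the 8 fits that left out an array, Npr3 passed in 1 (limma adjusted p up to 0.199) and Cav1 in 2 (up to 0.174).

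Mest, Klf14, Sfrp5, Bmp3, Npr3, Lep and Cav1 were each lowest on Senp2-aKO 2. Over the deviations of the 8 arrays from their group means, the correlation of Mest with Klf14 was 0.958, with Bmp3 0.919, with Cav1 0.901, with Npr3 0.900, with Lep 0.879 and with Sfrp5 0.805. Other genes gave similar values, with 0.838 for Ndn and for Fasn, a fatty acid synthesis enzyme, 0.834 for Dlk1, 0.805 for Plagl1 and 0.774 for Sgce, while Slc38a4 gave -0.0756. These points share the array and its scaling, and the values are a description. Without Senp2-aKO 2, over 7 arrays, the correlation was 0.780 with Klf14, 0.515 with Sfrp5 and 0.454 with Lep, and 0.285, 0.280 and 0.00526 with Bmp3, Cav1 and Npr3. It was -0.366 with Fasn, -0.174 with Ndn, -0.0928 with Plagl1, -0.194 with Sgce, 0.587 with Dlk1 and 0.832 with Slc38a4. The genes whose deviations were most like those of Mest were Cdc42bpg (0.993), Gm1604b (0.991) and C130074G19Rik (0.991), with 0.953, 0.966 and 0.934 without Senp2-aKO 2. For the other 7 genes the most alike were Cdh11 for Plagl1 (0.998), Robo1 for Peg3 (0.996), Dcun1d2 for Ndn (0.994), 2510009E07Rik for Sgce (0.993), Acyp1 for Cdkn1c (0.987), Stx17 for Grb10 (0.981) and Usp2 for Nnat (0.973). Each was picked as the best of all genes tested.

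**Figure D4:**
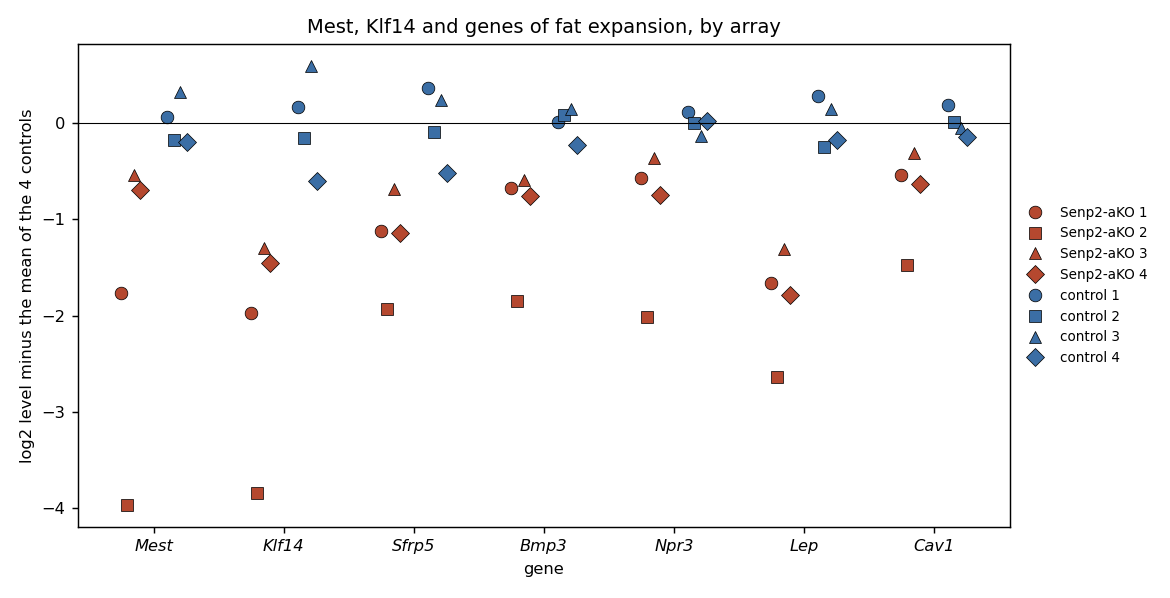
Level of Mest, Klf14 and genes of fat expansion on each array, as log2 level minus the mean of the 4 control arrays, with Senp2-aKO arrays in red on the left and control arrays in blue on the right of each gene. The shape gives the replicate number. Senp2-aKO 2 (red square) is the lowest array for each of the 7 genes, which were picked for this plot after their values were seen.

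Genes that work with the 10 were listed by role, 44 in all, and 43 were measured. Of these, 4 rose and 4 fell, 18.6% of them, against 14.4% of all genes, and the median difference was -0.07. In insulin and IGF signalling, where Grb10 acts, Pik3r1, a regulatory subunit of PI3 kinase, fell by 0.61 on the log2 scale (SE 0.13, limma adjusted p = 0.0221). The adaptor Irs1 fell by 0.55 (SE 0.15, limma adjusted p = 0.0488), and its second probe gave -0.30. The Pik3r1 call was lost without Senp2-aKO 1 or 4 or control 1 or 2 (adjusted p = 0.0536 to 0.0703), and the Irs1 call was lost in 7 of the 8 fits that left out an array, all but that without Senp2-aKO 1 (adjusted p = 0.0666 to 0.117).

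In the cell cycle, where Cdkn1c, Plagl1 and Ndn act, Cdkn1a, the kinase inhibitor p21, rose by 0.96 (SE 0.22, limma adjusted p = 0.0260). Cyclin D1, encoded by Ccnd1, fell by 0.56 on the log2 scale (SE 0.15, limma adjusted p = 0.0414). The Cdkn1a call was lost without Senp2-aKO 4 or control 1, 3 or 4 (adjusted p = 0.0606 to 0.0737), and the Ccnd1 call without any 1 array other than Senp2-aKO 3 (adjusted p = 0.0599 to 0.107). Among genes that set and keep imprints, Dnmt3a, the DNA methyltransferase that lays down germ line imprints, fell by 0.99 on the log2 scale (SE 0.13, limma adjusted p = 0.00577), and its call held when any 1 array was left out. Its levels were 0.17 to 0.46 in Senp2-aKO fat and 1.03 to 1.48 in control fat. Zfp57, a zinc finger protein that guards imprints, rose by 0.34 (SE 0.09, limma adjusted p = 0.0423), a call that held only without Senp2-aKO 2 among the fits that left out an array (otherwise adjusted p = 0.0516 to 0.111). The maintenance genes Dnmt1, Uhrf1 and Trim28 differed by -0.27, -0.69 and -0.14 and did not pass.

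Among the sarcoglycans, the partners of Sgce, the muscle member Sgca rose by 3.36 (SE 0.47, limma adjusted p = 0.00660). The Sgca call held when any 1 array was left out, and its second probe gave 3.24. Sgcb and Sgcd, which are not limited to striated muscle, differed by -0.02 and -0.26 and did not pass. The skeletal muscle marker mean was higher on the same 4 Senp2-aKO arrays (2.89 to 4.53, against -1.81 to 1.36 in control fat, exact permutation p = 0.0286). With that mean as a covariate Sgca differed by 0.90, and 0 genes of the 3 lists passed in limma. Of all 14730 genes in the same fit, 1 passed as higher and 0 as lower. An unadjusted limma p under 0.05 was reached by 5 of 37 other imprinted, 5 of 29 expansion and 7 of 43 partner genes. Of all genes, 993 reached it as higher and 746 as lower. That fit gave Mest -2.38 and Cdkn1c 0.86, with limma adjusted p of 0.583 and 0.450. Since the muscle mean itself did not overlap between the groups, it and the genotype can barely be told apart in these 8 arrays.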

How the data were processed

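The arrays were read with Agilent Feature Extraction 11.5.1, per the submitters' processing notes. The deposited processed, median and background signals are intensity values, per the file headers, not scaled between arrays. The deposited flags (above background, saturated, outlier) hold 0 or 1 for each spot, a unit named other here. The authors' deposited normalised matrix was not used, since its 8 sample columns match no label.

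Here log2 processed signal minus the 75th percentile of each array was averaged over the spots of a probe, without outlier spots. Probes well above background on at least 4 of 8 arrays were kept. Names came through RefSeq accessions (GRCm38.p6), and 27656 of 55681 probes matched. The probe of highest mean stood for its gene. The fit used limma 3.58.1 (R version 4.3.3, with package data.table in version 1.17.8) and Benjamini-Hochberg adjustment over all genes, and was tested on simulated data. Single values were compared with two-sided exact permutation tests over 70 assignments. Precision is limited by the number of arrays.

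The 10 genes and the gene lists were chosen with earlier results of these data known. Named genes were the 10, Senp2, a short fixed list (Igf2, Dlk1, Igf2r, Gnas, Peg10, Klf14, Rian, Lep, Sfrp5, Npr3, Bmp3, Cav1), up to 4 genes per list and direction that passed with the largest change, and the 3 genes most alike to each measured gene, of which some are given. Not every gene named by this rule is reported here. Neighbouring genes are named for their place. Alternatives were quantile normalisation, normexp with an offset of 50, other background filters, the mean over probes, array weights, a replicate block, marker means as covariates and leaving out each array.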

Additional observations from a re-analysis of the deposited data

Results flagged for a closer look

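In 94 groups of 4 values, the gap between the highest or lowest array and its nearest neighbour, divided by the whole range, was above Dixon's 95% critical value in 4, and chance alone gives about 1 in 20. The Bmp3 level was 0.38 on Senp2-aKO 2, against 1.46 to 1.64 on the other Senp2-aKO arrays (ratio 0.863). The Grb10 level was -0.85 on Senp2-aKO 3, against -0.60 to -0.55 on the others (ratio 0.834). The B lymphocyte marker mean was 1.48 on Senp2-aKO 2, against -2.93 to -2.69 on the others (ratio 0.948). The mammary epithelium marker mean was -2.49 on Senp2-aKO 4, against -1.43 to -1.24 on the others (ratio 0.851). Of the 4, 2 were on Senp2-aKO 2, the array with the lowest Mest level.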

How the results depend on the processing

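Of the imprinted growth genes, 1 passed under quantile normalisation, array weights and the B lymphocyte covariate, and 0 to 1 when an array was left out. Counts over all genes were 1074 higher and 1049 lower. They became 1831 and 1932 with array weights, 1 and 0 with the muscle covariate, and 434 to 1356 and 280 to 1472 without an array, and the lower count became 689 with no background filter and 1688 with the B lymphocyte covariate. The other imprinted genes that passed numbered 11 with the B lymphocyte covariate, 0 with the muscle covariate and 3 to 9 without an array. The expansion genes numbered 5 with no filter, 15 with array weights, 0 with the muscle covariate and 3 to 12 without an array. The partner genes numbered 5, 18, 0 and 2 to 12 in the same order. The cause of these shifts was not tested.

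Same-numbered arrays had correlations of their deviations from the group means of -0.02, -0.08, 0.14 and 0.11. Of the 8 arrays, 3 correlated best with the array of their own number. The labels give only a number, and these few values cannot decide whether same-numbered samples were paired. With a replicate block 725 genes were higher and 569 lower, and 4 partner genes passed.

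Signs turned for Gnas (0.21) and Peg3 (0.0326) with the mean over probes, for Gnas (0.0519), Grb10 (0.0033), Ndn (0.0415) and Peg3 (0.0309) with array weights, and for Gnas (0.0735), Grb10 (0.0989) and Nnat (0.82) with the muscle covariate. Without an array, Peg3 ranged from -0.32 to 0.0743, Ndn from -0.15 to 0.0867, Grb10 from -0.0471 to 0.0519, Nnat from -0.40 to 0.17 and Gnas from -0.11 to 0.0623. The adipocyte marker mean difference was 0.17, and -0.0195 under quantile normalisation. Without an array, the marker mean differences ranged from 3.65 to 4.71 (skeletal muscle), 0.46 to 0.61 (progenitor), 1.43 to 1.85 (mammary epithelium), 0.14 to 0.36 (macrophage), -0.65 to 0.86 (B lymphocyte), -0.49 to 0.75 (T lymphocyte) and -0.00233 to 0.0821 (Schwann cell).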

Other observations

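Markers of other cell types that fat from the groin can hold were also measured. The mammary epithelium marker mean, over 5 of 10 markers, was -2.49 to -1.24 in Senp2-aKO fat and -3.48 to -2.81 in control fat (exact permutation p = 0.0286). Krt5 and Krt14, keratins of basal epithelium, rose by 1.37 and 0.90 (limma adjusted p = 0.00703 and 0.00761). Krt19 rose by 1.01 (limma adjusted p = 0.0408). Krt18 and Cldn3 differed by 2.81 and 1.70 and did not pass (limma adjusted p = 0.0738 and 0.0506). The milk protein genes Wap and Csn2 were above background on 0 arrays, and Elf5, Epcam and Krt8 on 0 control arrays. The means over macrophage, endothelium and Schwann cell markers did not pass (exact permutation p = 0.171, 0.286 and 0.686), nor did that over T lymphocyte markers (0.943), whose highest array was Senp2-aKO 2 (2.29).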
